A study of Mus musculus with 5 samples.

Results

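The livers of NZW/LacJ and RIIIS/J mice were set against those of C57BL/6J, BALB/CByJ and FVB/NJ mice, gene by gene. A gene was taken as a member when its value in both strains of the pair lay outside the range of the other 3 strains. Of 18194 genes on the array, 11909 read above a detection floor of 8.41 intensity units, set from probe sets of odorant, taste and vomeronasal receptors, on at least 1 array, and 3038 of these were members, 1812 lower (15.2%) and 1226 higher (10.3%) in the pair. The distance between the nearest arrays of the 2 groups is called the gap. With a gap of at least 2-fold there were 106 leading members, 65 lower (0.546% of detected genes) and 41 higher (0.344%). Members were thus chosen by the deposited intensities of these same 5 arrays, so everything said of their separation is a description, and no test was made.

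Each of the 5 strains gave 1 array, hybridised with liver RNA pooled from 3 untreated males of 10 weeks. All 5 are inbred strains, and the labels name no transgene, mutant allele or agent for any of them. A pool averages its animals and shows no spread between them, so no strain had a replicate, and precision is limited by having 5 arrays in all. The time of day of collection is not given in the sources used here. Per the series text, the arrays served to follow up a locus found to affect liver expression. Intensities are listed below in the order C57BL/6J, BALB/CByJ and FVB/NJ, against NZW/LacJ and RIIIS/J.

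The mammalian circadian clock is a loop of transcription factors. CLOCK and BMAL1 activate genes through E-box sequences, and the PER and CRY proteins made from such genes then repress them. Around this loop, REV-ERB and ROR receptors act on Bmal1, Clock and Nfil3 through ROR elements, and DBP, TEF and HLF act through D-boxes, which NFIL3 also binds. In liver the loop gives a daily rhythm to genes of heme, bile acid, glycogen and lipid metabolism. Inbred strains also differ in inherited variants, many of them in clustered families such as glutathione transferases, glucuronosyltransferases and major histocompatibility genes.

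Promoters of 7 members that carry one of these clock motifs are shown first, since the values of clock genes follow. They were chosen after the values were seen. Each is 300 bases of the C57BL/6J reference from RefSeq (GRCm38.p6), from 250 bases before to 50 after an annotated start, written 5′ to 3′ on the strand of the gene. Capitals mark the matches, with those on the other strand (in Coq10b for the D-box and in Nfil3) shown as the reverse complement. The motifs were CACGTG for the E-box, TTATGTAA or TTACGTAA for the D-box and TAGGTCA for the core of the ROR element, on both strands. TGACGTCA, the cAMP response element, was also searched. The first 5 belong to genes lower in the pair: Tef (chr15:81802423-81802722, plus strand) with an E-box, Ciart (chr3:95882179-95882478, minus strand) with 3 E-boxes, Per3 (chr4:151044616-151044915, minus strand) with 2 D-boxes, Coq10b (chr1:55052520-55052819, plus strand) with a D-box and an E-box, and Slc20a1 (chr2:129198523-129198822, plus strand) with 2 E-boxes. The other 2, of genes higher in the pair, hold a ROR element core: Arntl (chr7:113207261-113207560, plus strand), the gene of BMAL1, and Nfil3 (chr13:52980990-52981289, minus strand).
Tef: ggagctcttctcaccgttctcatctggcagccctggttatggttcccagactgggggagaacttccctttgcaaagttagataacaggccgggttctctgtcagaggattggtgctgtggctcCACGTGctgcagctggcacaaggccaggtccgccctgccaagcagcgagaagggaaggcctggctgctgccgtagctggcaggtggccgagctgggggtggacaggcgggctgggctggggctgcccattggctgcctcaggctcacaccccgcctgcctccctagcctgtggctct
Ciart: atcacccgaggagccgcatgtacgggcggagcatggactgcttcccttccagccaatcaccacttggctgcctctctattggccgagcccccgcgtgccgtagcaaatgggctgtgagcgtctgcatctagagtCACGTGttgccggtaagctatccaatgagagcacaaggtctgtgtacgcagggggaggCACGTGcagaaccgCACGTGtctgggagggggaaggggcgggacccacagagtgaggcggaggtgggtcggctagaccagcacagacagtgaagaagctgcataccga
Per3: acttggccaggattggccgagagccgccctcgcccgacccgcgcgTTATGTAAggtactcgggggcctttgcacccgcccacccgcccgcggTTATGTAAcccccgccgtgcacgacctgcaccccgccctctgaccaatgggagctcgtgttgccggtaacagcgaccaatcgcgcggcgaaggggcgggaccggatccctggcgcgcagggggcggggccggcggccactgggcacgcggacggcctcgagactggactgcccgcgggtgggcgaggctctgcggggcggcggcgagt
Coq10b: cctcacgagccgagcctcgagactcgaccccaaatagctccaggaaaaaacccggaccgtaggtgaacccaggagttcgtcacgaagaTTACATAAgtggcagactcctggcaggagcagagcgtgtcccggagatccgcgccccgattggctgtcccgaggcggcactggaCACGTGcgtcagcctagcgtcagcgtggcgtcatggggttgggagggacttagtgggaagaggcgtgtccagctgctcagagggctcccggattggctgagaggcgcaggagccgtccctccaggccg
Slc20a1: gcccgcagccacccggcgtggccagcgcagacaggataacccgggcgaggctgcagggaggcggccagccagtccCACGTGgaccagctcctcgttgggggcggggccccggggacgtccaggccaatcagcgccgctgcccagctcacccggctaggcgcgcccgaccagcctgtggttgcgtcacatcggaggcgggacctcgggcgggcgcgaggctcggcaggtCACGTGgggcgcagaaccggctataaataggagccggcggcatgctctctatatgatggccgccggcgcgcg
Arntl: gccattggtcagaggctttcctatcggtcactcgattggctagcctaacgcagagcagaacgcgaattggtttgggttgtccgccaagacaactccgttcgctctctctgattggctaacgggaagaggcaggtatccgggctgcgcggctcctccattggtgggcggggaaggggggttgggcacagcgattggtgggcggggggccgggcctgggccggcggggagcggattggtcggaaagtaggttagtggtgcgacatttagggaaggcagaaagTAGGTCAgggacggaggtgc
Nfil3: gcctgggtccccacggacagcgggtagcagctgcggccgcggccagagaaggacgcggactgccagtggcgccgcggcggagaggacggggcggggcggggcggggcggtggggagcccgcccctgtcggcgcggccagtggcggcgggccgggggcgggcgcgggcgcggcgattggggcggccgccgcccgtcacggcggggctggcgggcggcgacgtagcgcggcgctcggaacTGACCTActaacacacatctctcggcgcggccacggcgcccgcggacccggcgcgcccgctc

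Over the 32851 promoters of the table, 7.15% held the E-box, 1.06% the D-box, 2.61% the ROR element core and 1.79% the cAMP response element. The table matched 47 of the 65 lower leading members with 60 promoters, and 31 of the 41 higher ones with 41 promoters. Among the promoters of the lower members, 5 (8.33%) held the E-box, in Coq10b, Rev1, Slc20a1 and Tef, and 3 (5%) the D-box, in Coq10b, Ogt and Per3. None of the 60 held the ROR element core. Of the 41 promoters of the higher members, 6 (14.6%) held that core, in Arntl, Lyplal1, Macrod2, Mapk8 and Nfil3, with 2 overlapping promoters of Macrod2. The E-box was in 1 of them (2.44%), that of Gla, and the D-box in none. Among the 12384 promoters of detected genes the shares were 9.82% for the E-box, 0.767% for the D-box and 2.15% for the ROR element core. The promoters of Dbp and Usp2 held none of the 4 motifs. A match is a description of letters in a short window and shows no binding.

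Some arrays stood apart in the markers of other cells. On the FVB/NJ array the summed intensity of 8 B cell markers was 18060 against 119 to 251 on the other arrays, and on the RIIIS/J array that of 9 exocrine pancreas markers was 64271 against 731 to 1311. Summed hepatocyte markers, 9 of 12 with a probe set, read 369361 to 391020 in the 3 strains and 367777 to 431011 in the pair. All 9 of them overlapped between the groups. Summed stellate cell and fibroblast markers did not overlap, at 6789 to 8620 against 4832 to 6042. Of their 10 detected markers 3 were separated on the low side, beside 15.2% of all detected genes. Summed endothelial markers barely did not overlap, at 2694 to 3027 against 2399 to 2693. In bulk tissue, fewer cells of a type and less RNA per cell cannot be told apart. The ratio of 3' to 5' signal of the actin control, a measure of RNA integrity and labelling, was 3.80 to 4.98 in the 3 strains and 2.76 to 3.73 in the pair. Gapdh gave 0.950 to 1.01 and 0.901 to 0.954. The part of these differences in the values below was not tested.

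Most separations were narrow, with a median gap of 0.18 log2 among the lower and 0.17 log2 among the higher genes. A gap under 0.25 log2 was seen in 1104 lower and 783 higher genes. With a gap of at least 4-fold there were 9 lower (0.0756%) and 12 higher (0.101%) genes. The condition is easier to meet with fewer arrays. Without FVB/NJ 100 genes were lower by at least 2-fold and 54 higher. Without C57BL/6J the counts were 113 and 71, without BALB/CByJ 88 and 65, without NZW/LacJ 354 and 183, and without RIIIS/J 189 and 159. With the same probe set and floor, leaving out an array cannot narrow a gap. That 63 to 65 of the lower and 40 to 41 of the higher leading members were kept is therefore no check on them.

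**Figure D1:**
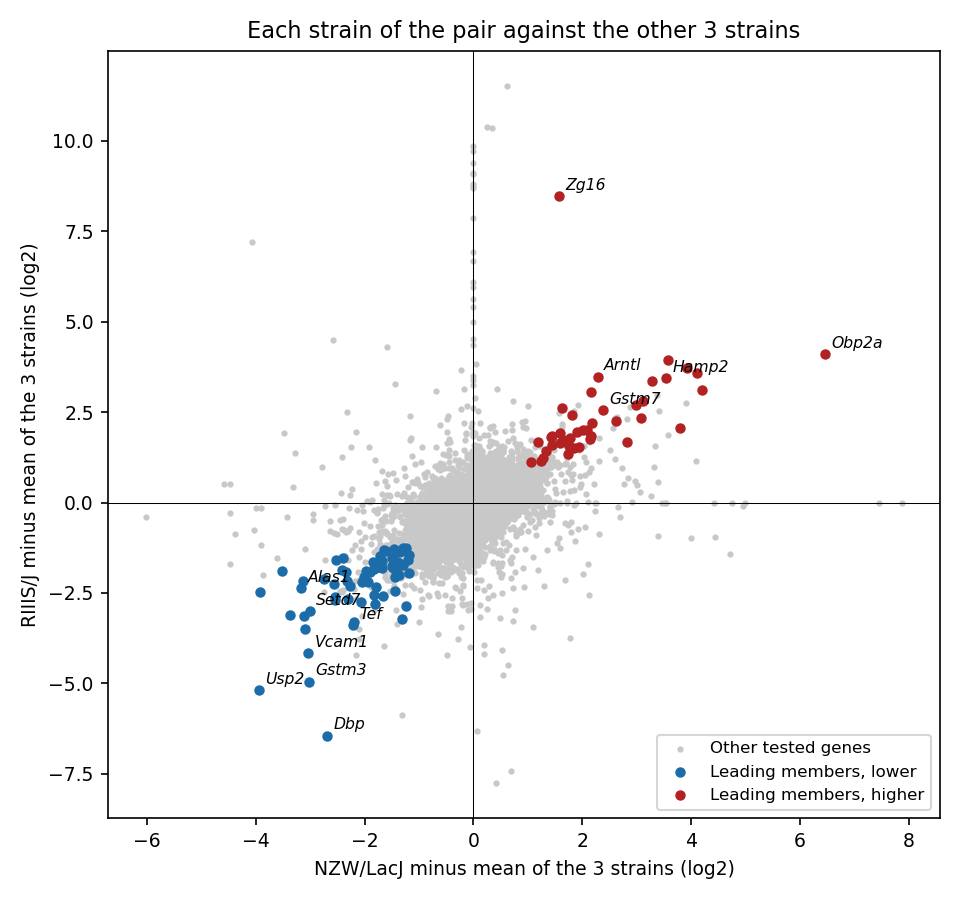
Log2 intensity of NZW/LacJ (x axis) and of RIIIS/J (y axis), each minus the mean of the other 3 strains, for 11909 detected genes, with values under the floor raised to it. The 65 lower leading members (blue) lie at the lower left and the 41 higher ones (red) at the upper right, with Dbp and Usp2 lowest and Obp2a and Zg16 outermost on the high side.

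Clock genes that peak around dusk were lower in the pair. Of 14 such genes on the array 13 were detected, 11 were separated on the low side and 0 on the high side, and 6 were leading members. Over all detected genes 15.2% were separated on the low side, and 0.546% were leading members there. The median difference of the group means was -2.31 log2 over the 13 genes and -0.03 log2 over all detected genes. The list holds genes already known from these data to differ between the strains, so its count is no independent evidence.

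Usp2, which encodes a ubiquitin protease under clock control, had the widest gap of all lower genes. It read 914, 718 and 929.8 against 55.3 and 23.4, 13-fold between the nearest arrays. The 3 strains lay close together and the pair lay far below, with RIIIS/J lowest. Dbp, the gene of the D-box activator, read 6439, 8951 and 4939.5 against 1023 and 75.5, with a gap of 4.83-fold. Here the pair itself was spread, NZW/LacJ being far nearer to the 3 strains than RIIIS/J was. Tef, another D-box activator gene, read 1293, 1530.3 and 1387 against 301 and 133, a 4.30-fold gap. Hlf, of the same family, was separated by only 0.36 log2, at 639, 571 and 622 against 432 and 444.

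Wee1, a kinase gene that restrains entry into mitosis and is driven by the clock, read 115, 161 and 179 against 25.6 and 24.2, 4.49-fold apart. Both strains of the pair were nearly level. They were also close for Per2, which read 87.7, 188 and 183 against 29 and 22.7 with a gap of 3.02-fold. Per3 read 104, 197 and 277 against 50.6 and 25.5, 2.06-fold apart, and was highest in FVB/NJ. All 3 Per genes, which encode repressors of CLOCK and BMAL1, were separated, Per1 by 0.63 log2 at low intensities of 29.4, 46.7 and 42 against 19 and 18.7.

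Other repressor genes followed with gaps under 2-fold. Nr1d2, the gene of REV-ERB beta, read 4108, 4799 and 3552 against 2131 and 987, and Cry2 read 363, 404 and 278 against 189 and 117. Ciart, a further repressor of CLOCK and BMAL1, read 75.6, 212 and 35.7 against 22.4 and 16.3 and was spread widely among the 3 strains. Nr1d1, the gene of REV-ERB alpha, overlapped between the groups at 314, 223 and 95.4 against 136 and 26.2, as FVB/NJ was below NZW/LacJ. Noct, a rhythmic phosphatase gene, overlapped too at 255, 1077 and 479 against 24.5 and 277, with RIIIS/J inside the range of the 3 strains. Among the 11 separated genes RIIIS/J was the lowest array for 10, Hlf being the exception. The remaining gene of the list, Bhlhe41, did not reach the floor in any strain.

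Clock genes that peak around dawn were higher in the pair. All 5 genes measured were detected, 4 were separated on the high side and 0 on the low side, and 3 were leading members. Their median difference was 1.61 log2. Over all detected genes 10.3% were separated on the high side, and 0.344% were leading members there. This list too was chosen with earlier results of these data known, so its count is no independent evidence.

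Arntl, which encodes BMAL1, read 13.7, 14.1 and 14.1 against 68.1 and 156, a gap of 4.83-fold. It was at one low level in the 3 strains and differed by over 2-fold within the pair. Clock read 286, 229.6 and 214 against 723 and 756 and Nfil3, the gene of the D-box repressor, read 222, 274 and 229 against 644 and 840.3, with gaps of 2.52-fold and 2.35-fold. For both genes the pair was close together. Npas2, a paralog of Clock, was under the floor in the 3 strains and read 27 and 12.7 in the pair. Cry1 was not separated, at 102, 136 and 272 against 254 and 375, because FVB/NJ read above NZW/LacJ. RIIIS/J was the higher array for 3 of the 4 separated genes.

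**Figure D2:**
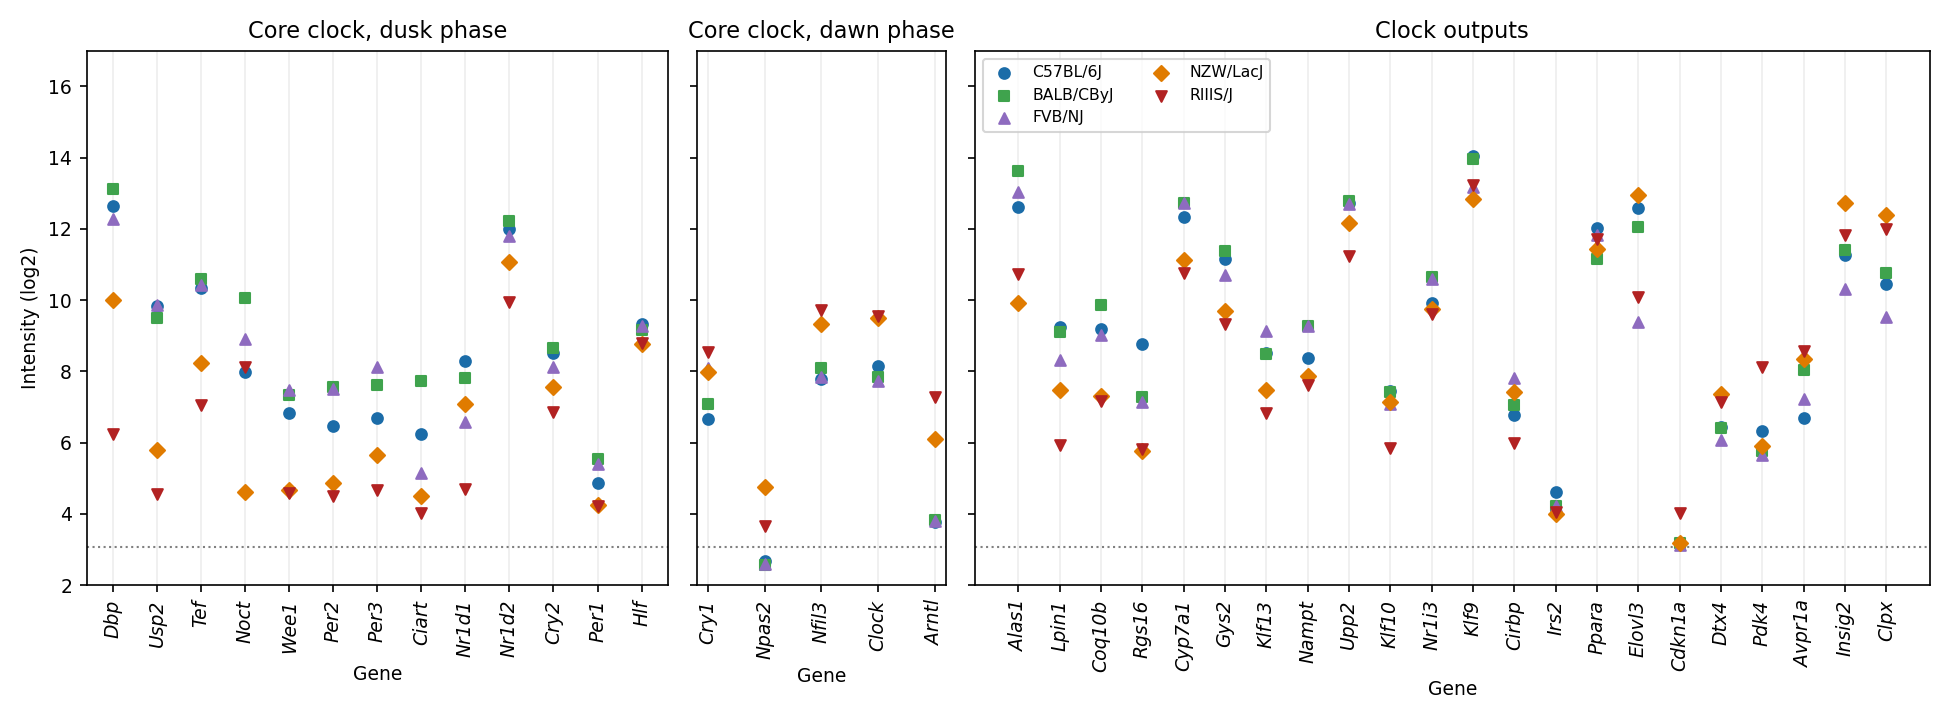
Log2 intensity of the detected genes of the clock lists on each of the 5 arrays, with 1 point per strain, no error bars since each strain had 1 array, and the detection floor as a dotted line. In the left panel NZW/LacJ and RIIIS/J lie below the other strains for 11 of 13 genes, and for dawn genes in the middle they lie above them for 4 of 5. The clock outputs on the right lie on both sides.

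A further list held clock components taken to have weak or no rhythm, which was not examined here. Of its 7 detected genes 1 was separated, Bhlhe40 on the low side at 984, 1168 and 989.8 against 558 and 639. That share is near the 15.2% of all detected genes. The median difference was -0.19 log2. Btrc, a ubiquitin ligase subunit gene, was nearly level on all arrays at 217, 213 and 191 against 207 and 208, and Csnk1d, a kinase gene that acts on PER proteins, overlapped at 1518, 1223 and 996 against 1679.9 and 932.

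Rhythmic genes downstream of the clock were divided, with more on the low side. Among 19 detected genes that peak between daytime and dusk, 11 were separated lower, 5 of them as leading members, and 3 were separated higher. The median difference was -0.82 log2. Over all detected genes 15.2% were lower, with 0.546% as leading members, and 10.3% were higher. Alas1, the rate-limiting enzyme of heme synthesis in liver, read 6217, 12738 and 8409 against 972 and 1704, 3.65-fold apart, with NZW/LacJ lowest. Coq10b, which encodes a coenzyme Q binding protein, read 587, 927 and 525 against 159 and 143, with a gap of 3.30-fold and the pair nearly level. Cyp7a1, the rate-limiting enzyme of bile acid synthesis, read 5113, 6805 and 6814 against 2217 and 1749.8, 2.31-fold apart.

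The other leading members of that list were Rgs16 and Gys2. Rgs16, a regulator of G protein signalling, read 437, 156 and 141 against 54.1 and 57, and C57BL/6J stood well above the other strains. Gys2, the liver glycogen synthase, read 2259, 2686 and 1684 against 829 and 646, a gap of 2.03-fold. In both genes the pair was close together. Klf13 came next, just short of a 2-fold gap, at 363, 357 and 565 against 179 and 113. Lpin1, a phosphatidate phosphatase gene, followed at 606, 552 and 322 against 178 and 60.6. Upp2, a uridine phosphorylase gene, read 6823, 6979.9 and 6583 against 4565 and 2419.6, and Nampt, of NAD synthesis, read 331, 618 and 620.4 against 235 and 195. Their gaps were 0.53 and 0.49 log2. Nr1i3 and Irs2 were separated by 0.18 log2 each.

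Not all daytime genes were low in the pair. Insig2, which encodes a regulator of sterol synthesis, was higher at 2479, 2721 and 1263 against 6776 and 3656, as was the vasopressin receptor gene Avpr1a at 103, 262 and 150.3 against 324 and 383 and Dtx4 at 87, 85.7 and 67.4 against 166 and 141. Ppara, Pdk4, Klf10, Klf9 and Cirbp overlapped between the groups. Pdk4, a kinase gene of fasting, was high in RIIIS/J alone, at 80.0, 54.8 and 50.8 against 59.5 and 277. Of 3 detected genes that REV-ERB represses, Clpx and Cdkn1a were separated on the high side. Clpx, a subunit gene of a mitochondrial protease, read 1404, 1741 and 738 against 5342 and 4079, 2.34-fold apart, whereas Cdkn1a read 9.13, 9.09 and 8.81 against 9.16 and 16.3, close to the floor, and NZW/LacJ barely exceeded the 3 strains. Elovl3, a fatty acid elongase gene, overlapped at 6203, 4264 and 676 against 7878 and 1096.

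The lists of feeding, fasting and glucocorticoid response gave no leading member. With 0.546% and 0.344% of all detected genes leading, lists of this size give no contrast there. The counts of separated genes below stand beside 15.2% lower and 10.3% higher over all detected genes. Of 8 detected fasting genes 4 were lower, including Angptl4, a lipase inhibitor gene, at 1497, 1648 and 970.2 against 567 and 443, Pck1, of gluconeogenesis, at 16061, 26964 and 15077 against 12143 and 8196, and Txnip at 639.5, 511 and 1305 against 326 and 293. Foxo1 was separated by only 0.02 log2. Of 11 detected feeding genes 3 were lower, among them Thrsp, a gene of lipogenesis, at 13899.9, 16156 and 22965 against 5797 and 7587. Of 11 glucocorticoid targets 8 overlapped, while Fkbp5 was lower at 261, 261 and 310.4 against 179 and 181 and Dusp1 and Lcn2 were higher. Among 17 cholesterol synthesis genes 1 was lower and 0 were higher, and among 16 PPAR-alpha targets 7 were lower and 0 higher, with Acot2 at 91.8, 78.4 and 87.5 against 40.3 and 50.3. Heat shock genes showed 1 lower (Dnajb1) and 1 higher (Hspa5) among 14, and immediate early genes 2 lower and 1 higher among 8.

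In the mu class of glutathione transferases, enzymes that conjugate electrophiles, 4 genes were leading members, and they did not run the same way. Gstm3 read 2629, 1595 and 2562 against 271 and 71.2, 5.89-fold apart. Gstm2 read 1526, 4041 and 1081 against 182 and 217 and Gstm6 read 1323, 2045 and 523 against 131 and 99.5, with gaps of 4.97-fold and 4.01-fold. Gstm7 was higher in the pair, at 1015, 1059.6 and 633 against 4562 and 5196, 4.31-fold apart. In the reference order of detected genes these 4 lie next to one another, as Gstm7, Gstm6, Gstm3 and Gstm2.

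The flanking genes of the cluster differed less. Gstm1, the most intense of the family, read 19614, 16674 and 16659 against 15376 and 9673 and was separated by 0.12 log2, Gstm4 was higher by 0.13 log2 at 966, 765 and 546 against 1407 and 1053, and Gstm5 was lower by 0.18 log2 at 356, 603 and 321 against 284 and 70.0, being low in RIIIS/J alone. A further probe set of Gstm3 read 394, 260.0 and 331 against 3.96 and 3.10. On it both strains of the pair were under the floor, so that they were at least 30.9-fold below the nearest other strain. The second probe set of Gstm7 did not reach the floor in any strain. Genes of this family are close in sequence, and how a probe set divides signal among them is uncertain.

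**Figure D3:**
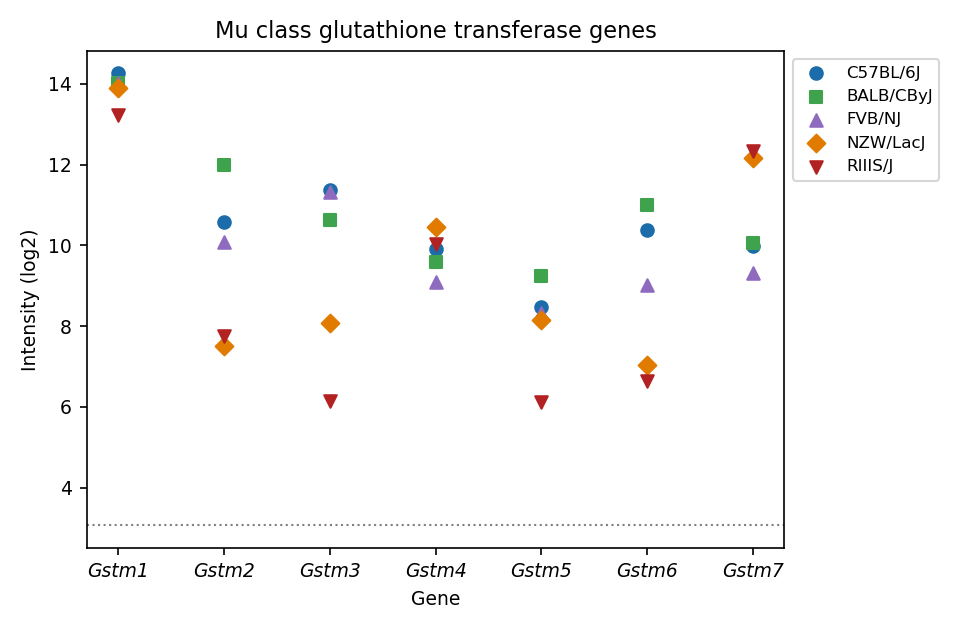
Log2 intensity of the most intense probe set of each mu class glutathione transferase gene on the 5 arrays, with 1 point per strain, no error bars and the detection floor as a dotted line. NZW/LacJ and RIIIS/J lie below the other strains for Gstm2, Gstm3 and Gstm6 and above them for Gstm7.

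A list of foreign compound metabolism, which includes Gstm1, Gstm2, Gstm3, Gstm4 and Gstm6, had 53 detected members, of which 8 were lower and 6 higher, with a median difference of -0.02 log2. These shares of separated genes are near those over all detected genes, 15.2% lower and 10.3% higher. Of the 53, 3 were lower leading members, the Gstm2, Gstm3 and Gstm6 described above, beside 0.546% of all detected genes. Outside the list, 2 glucuronosyltransferase genes led on the high side. Ugt2b37 read 18.5, 39.1 and 24.6 against 161 and 126, 3.22-fold apart. Ugt2b38, more abundant in males, read 408, 185 and 210.1 against 3468 and 1056, with NZW/LacJ far above RIIIS/J. They are separated in the gene order by Ugt2a3, which overlapped at 7703, 7760.5 and 6480.0 against 8609 and 7567, and the adjacent Sult1b1, a sulfotransferase gene, was also higher at 708, 378 and 378 against 1201 and 1202. Ugt2b5, Ugt2b35 and Ugt2b36 overlapped between the groups.

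Several higher members encode secreted proteins, a grouping made after the values were seen and on no fixed list. Obp2a, an odorant-binding lipocalin gene, had the widest gap of all, reading 11.1, 6.38 and 7.22 against 811 and 159. The nearest arrays, C57BL/6J and RIIIS/J, were 14.2-fold apart, BALB/CByJ and FVB/NJ were under the floor, and the pair was spread by over 4-fold. Hamp2, a hepcidin gene, read 4079, 2258 and 4695 against 40752 and 38309.9, 8.16-fold apart, with the pair level. The adjacent Hamp, which encodes the iron regulator hepcidin, overlapped at 39899.5, 42512 and 53608 against 39969 and 23410.0, and RIIIS/J was lowest there.

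Leap2, an antimicrobial peptide and antagonist of the ghrelin receptor, read 2717, 3938 and 2405 against 11933 and 11843, a gap of 3.01-fold. Both strains of the pair read almost the same value. Mbl1, a mannose-binding lectin gene, read 4313, 3663 and 4004 against 9414 and 8845, 2.05-fold apart, and Enho, the gene of the peptide adropin, read 286, 1354 and 598 against 2788 and 2825, with the 3 strains widely spread. Orm2, an acute phase glycoprotein gene, read 126, 111 and 94.7 against 776 and 350.0. Of 23 acute phase genes 9 were higher and 1 lower, and Orm2 was the leading member among them. Over all detected genes 10.3% were higher and 15.2% lower.

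A further set of higher genes was at or near the floor in the 3 strains. Mrap2, an accessory protein gene of melanocortin receptors, read 4.66, 4.47 and 4.69 against 145 and 101, at least 12-fold higher. Slc34a2, a phosphate transporter gene, read 4.71, 6.47 and 4.77 against 66.4 and 54.2, at least 6.45-fold higher. Erp27, of the endoplasmic reticulum, read 7.86, 7.65 and 6.80 against 70.9 and 42.8, at least 5.09-fold higher. None of these 3 was above the floor in any of the 3 strains. Fmn2, a formin gene, read 4.47, 27 and 9.24 against 236 and 111, 4.13-fold between the nearest arrays, and Prelid2 and Ncapg were the remaining genes under the floor in at least 1 of the 3 strains.

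Several further higher genes sat at a low level in 3 strains and a high level in the pair. Lratd2 read 30.2, 57 and 58.8 against 453 and 477, 7.70-fold apart. Mmd2 read 55.2, 18.4 and 31.8 against 485 and 419, 7.59-fold apart. H2-Bl, a class I histocompatibility gene of a family of near-identical copies, read 75.6, 71.6 and 64.8 against 612 and 494, 6.54-fold apart. For these 3 genes the range within the pair was 0.07 to 0.31 log2. Snrnp25, a spliceosome protein gene, read 39.8, 86.8 and 128 against 914 and 1167, and its neighbour Rhbdf1 was higher too at 35.7, 30.1 and 53.3 against 148 and 113. Mpg, a DNA glycosylase gene that follows them, was separated by 0.55 log2 at 111, 154 and 122 against 253 and 226.

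The rest of the higher members had varied roles, and they are given in an order chosen after the values were seen. Chka, the first enzyme of phosphatidylcholine synthesis, read 190.2, 176 and 158 against 743 and 697, 3.66-fold apart. Trim2, a ubiquitin ligase gene, read 650.1, 475 and 325 against 2074 and 1677. Pdgfc, a growth factor gene, read 92.5, 70.9 and 58.3 against 248 and 249.9, and Slc30a10, a metal exporter gene, read 117, 137 and 73 against 330.4 and 349. Both of the latter were nearly level within the pair. Lyplal1, the neighbour of Slc30a10, was the last gene inside the 2-fold limit at 286, 366 and 391 against 783 and 1095.

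Cldn1, of tight junctions, read 949.9, 821 and 644 against 2639.6 and 2014, and Mapk8, the gene of the kinase JNK1, read 122, 139 and 152 against 335 and 321. Tubb2a, a tubulin gene, read 1343, 988 and 864 against 3220.1 and 6416, highest in RIIIS/J. These 3 genes were above the floor in every strain. Gla, the alpha-galactosidase of lysosomes, read 24.1, 31.9 and 24.3 against 72.3 and 94.6. Zg16, a zymogen granule protein gene of exocrine pancreas, read 21.4, 20.7 and 16.9 against 58.4 and 6974. Its RIIIS/J value stood beside the high pancreas markers of that array, and their part in it was not tested. NZW/LacJ, whose summed pancreas markers of 879 lay within the range of the 3 strains, was 2.73-fold above the 3 strains. On its further probe sets RIIIS/J alone was high, and NZW/LacJ was no higher than C57BL/6J. The higher members not yet described, Snhg14, Lad1, Pvt1, Znhit3, Macrod2, Lgalsl and Proser2, had gaps of 2.02-fold (Proser2) to 2.89-fold (Snhg14).

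**Figure D4:**
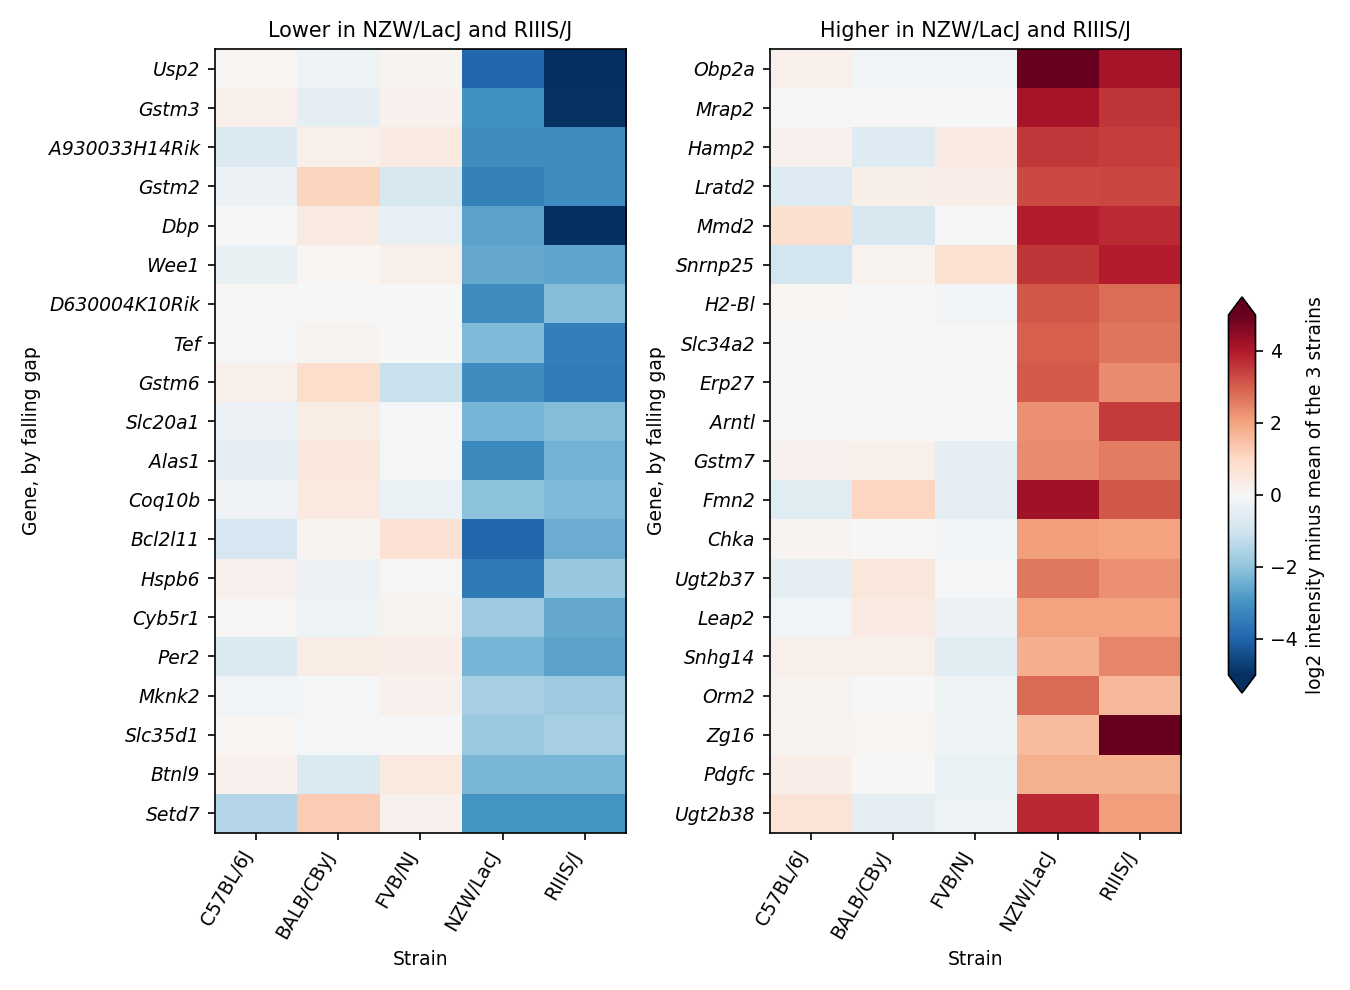
Log2 intensity minus the mean of C57BL/6J, BALB/CByJ and FVB/NJ for the 20 lower (left) and 20 higher (right) members with the widest gaps, ordered by gap, with values under the floor raised to it and colours saturating at the ends of the scale. NZW/LacJ and RIIIS/J are both blue on the left and both red on the right. Zg16 and Dbp differ most between those strains.

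Outside the clock and the glutathione transferases, the lower members are grouped here by role, on no fixed list and after the values were seen. Slc20a1, a phosphate transporter gene, read 534, 857 and 614 against 130.1 and 146, 3.65-fold apart. Slc35d1, a nucleotide sugar transporter gene, read 3305, 2930.1 and 3157 against 870.5 and 997, with a gap of 2.94-fold. Each group was tight for Slc35d1, but a second, dimmer probe set of the gene was separated the other way, at 109, 74.9 and 85.7 against 155 and 199. Slc43a3 read 151, 109 and 122 against 41.5 and 49.4, and Abcd2, a peroxisomal fatty acid transporter gene, read 33, 78.1 and 25.5 against 11.4 and 11.2.

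Enzymes of sphingolipid and phospholipid metabolism were also present. St3gal5, which makes the ganglioside GM3, read 625, 779 and 669.7 against 218 and 115, 2.87-fold apart. Ugcg, which makes glucosylceramide, read 78.5, 78.5 and 138 against 29.3 and 27.9, 2.68-fold apart. Ddhd2, a phospholipase gene, read 397, 587 and 364 against 159 and 180.0. RIIIS/J was the lower of the pair for St3gal5, and the pair was nearly level for the other genes. Cyb5r1, a cytochrome b5 reductase gene, read 97.8, 80.0 and 105 against 26.4 and 16, and Adcy6, an adenylate cyclase gene, read 248, 125 and 125 against 27.3 and 52.5.

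Signalling and stress genes on the low side included Mknk2, a kinase that acts on a translation initiation factor, at 3330.1, 3377 and 4213 against 1133 and 1035, 2.94-fold apart. Bcl2l11, the gene of the death factor BIM, read 70.1, 140.3 and 208 against 3.72 and 22.6, and Hspb6, a small heat shock protein gene, read 219, 154 and 194 against 16.3 and 50.5. In both NZW/LacJ was the lower of the pair. Id1 read 68.8, 68.8 and 111 against 25.9 and 32.3, Tgfbr3, a co-receptor for TGF-beta, read 371, 506 and 394 against 184 and 154, and Ogt, which attaches N-acetylglucosamine to proteins, read 1138, 1259.9 and 2169.7 against 554 and 471. Setd7, a methyltransferase gene, was under the floor in the pair and at 24.2 to 162 in the 3 strains, at least 2.88-fold higher there.

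Genes of RNA processing and of the nucleus were a further set, put together by gene name after the values were seen. Rsrp1 and Pnisr, which encode proteins rich in arginine and serine, read 3962, 4240.4 and 4655 against 1868 and 1429 and 571, 554 and 521 against 239.9 and 143. Ccnl2, a cyclin gene linked to splicing, read 1316, 1645 and 1478 against 602 and 449, and Snrnp70, of the U1 particle, read 303, 358 and 518 against 148 and 121. Akap8, a nuclear anchoring protein gene, read 338, 389.6 and 463 against 139.6 and 117. The other genes of this set were Taf1d (118, 199 and 196 against 31.4 and 45.9), Fnbp4 (117, 175 and 209 against 49.9 and 52.3) and Rere (199.6, 201 and 238 against 86.8 and 88.9). Gaps in this set ran from 2.05-fold (Snrnp70) to 2.56-fold (Taf1d), and in all 8 genes the gap exceeded the spread within either group.

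Among the 65 lower leading members, 6 read at least 2-fold higher in FVB/NJ than in C57BL/6J and BALB/CByJ. Of all 1812 lower genes, 107 did so. FVB/NJ was also the array with high B cell markers. Its summed markers of T and NK cells (354 against 60.9 to 63.1), neutrophils (631 against 52.4 to 90.9) and dividing cells (1442 against 178 to 220.5) were the highest too, as were those of erythroid and Kupffer cells. The part of these cells in the values was not tested. Vcam1, an adhesion molecule gene, read 114, 169 and 1795 against 39.7 and 18.3. Celf2 read 242, 195 and 817 against 66.3 and 89.6, AU020206 read 89.7, 89.7 and 534 against 42.7 and 35.6 and Clic1 read 126, 126 and 449 against 59.8 and 62.6. Axl, a receptor kinase gene of macrophages, read 29.8, 29.6 and 78.8 against 12.2 and 12, and Gdf10, a growth factor gene, read 36.5, 45.3 and 112 against 13.7 and 4.41. By the definition of a leading member, C57BL/6J and BALB/CByJ were at least 2-fold above the pair for each of these too. Leaving out FVB/NJ cannot narrow such a gap. That each stayed a leading member without FVB/NJ is therefore no check on the part of the cells named above. Nlrc5, the activator of class I histocompatibility genes, read 138, 103 and 106 against 42.3 and 20.9. It was not high in FVB/NJ.

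The lower members not yet described ranged in gap from 2.06-fold (Rev1) to 5.26-fold (A930033H14Rik). A930033H14Rik read 111, 218 and 250.3 against 21 and 20.7 and D630004K10Rik read 304, 292 and 289 against 33.5 and 65, and the role of neither is described here. Spc25, a kinetochore gene, was far higher in BALB/CByJ at 92.4, 494 and 87.9 against 23.7 and 36.8, and Tmtc2 likewise at 71.8, 205 and 36.5 against 13.7 and 17.2. Pcsk4, Lonrf1 and Adamdec1 were also spread by over 2-fold among the 3 strains. Usp40 read 122, 131 and 58.4 against 24.2 and 23.5 and Cnmd read 258, 255 and 370.1 against 107 and 69.8. The others were Btnl9, Ankrd16, Rnf24, D130043K22Rik, Miip, Rnf186, Dipk2a, Gtpbp2, Gdap10, Ifrd1 and Rev1.

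A list of 26 genes known elsewhere to vary between inbred strains gave no leading member. It does not hold the Gstm, Ugt2b and class I genes above. Of 19 detected, 17 overlapped, 2 were higher in the pair and 0 lower, with a median difference of 0.01 log2. With 0.546% and 0.344% of all detected genes leading, a list of this size gives no contrast. Hdhd3, which lies where copy number differs from strain to strain, was higher at 105, 376 and 194 against 806 and 579.8, C57BL/6J being lowest. Wdfy1 was separated by 0.18 log2 at 228, 436 and 501 against 569 and 593. Alad, of the same stretch as Hdhd3, overlapped at 4257, 12311 and 8396 against 9444 and 9377, and Glo1, another gene of variable copy number, overlapped at 12515, 17722 and 11661 against 13495 and 9082. Of 19 detected genes on a list for the histocompatibility region 2 were lower and 1 higher, none as a leading member. The leading members H2-Bl and Clic1, a gene of the same region, are not on that list. H2-D1 read 9243, 8069.8 and 15684 against 6789 and 3395, and H2-K1 overlapped at 11912, 6159.5 and 9677 against 6585 and 2602. Among 28 detected interferon-stimulated genes, 4 were lower and 2 higher. The higher were Oasl1 at 32.9, 14.3 and 7.64 against 60.2 and 103 and Ifi47 at 572, 551 and 398 against 947 and 1078. Gbp7 was lower at 202, 243 and 275 against 15.9 and 105. On this list and that of the histocompatibility region, the shares lay near or under those of all detected genes, 15.2% lower and 10.3% higher.

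The clock lists held 15 of the 106 leading members, other lists held 6, and 85 were in none. The gap exceeded the range within both groups in 11 of the 15 clock members (73.3%) and in 70 of the 91 others (76.9%). The median range within the pair was 0.38 log2 for the clock members and 0.31 log2 for the others. RIIIS/J lay farther from the 3 strains than NZW/LacJ in 12 of the 15 and in 50 of the 91. These shares were not tested. Over all separated genes the gap exceeded both ranges in 19.9% of the lower and 22.3% of the higher ones, and RIIIS/J lay farther out in 57.3% and 55.4%.

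**Figure D5:**
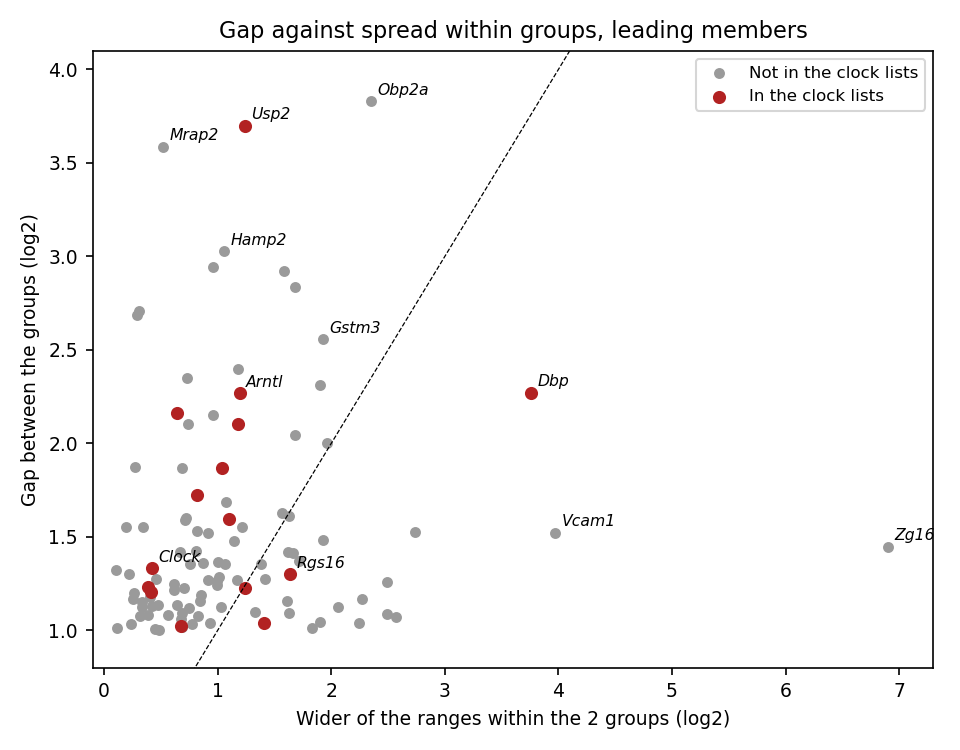
Gap between the groups (y axis, log2) against the wider of the ranges within the 2 groups (x axis, log2) for the 106 leading members, with the 15 in the clock lists in red and the line of equality dashed. Most points of both colours lie above the line, and Dbp, Vcam1 and Zg16 lie far to its right.

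Dbp ordered the strains as BALB/CByJ, C57BL/6J, FVB/NJ, NZW/LacJ and RIIIS/J from high to low. This order was shared by 8 of the 65 lower leading members (12.3%) and by 183 of all 1812 lower genes (10.1%). Besides Dbp these 8 were Gstm6, Coq10b, Pcsk4, Usp40, Abcd2, Gtpbp2 and Gys2, of which Coq10b and Gys2 were in the clock lists. The reverse order was found in 1 of the 41 higher leading members, Ncapg, and in 63 of 1226 higher genes (5.14%).

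The most intense probe set chose each member, so the further probe sets of a gene are readings that the choice did not use, though of the same RNA. Of the lower leading members 37 had 73 further probe sets above the floor, of which 45 (61.6%) were separated the same way, 1 the other way and 27 not at all. For the higher members the counts were 20 of 33 probe sets (60.6%) in 20 genes, with 0 the other way. Over 9072 further probe sets of all detected genes, 11.8% were separated on the low side and 10.1% on the high side. A second probe set of Usp2 read 153, 96.2 and 131 against 10.5 and 8.93, and one of Dbp read 2006, 2439 and 1262 against 222 and 9.78. One of Miip read 74.7, 89.7 and 87.8 against 11.2 and 12.6, a wider gap than on its most intense probe set. By contrast Mapk8 and Celf2 each had 4 further probe sets and none was separated, and for Taf1d 2 of 6 were. The second probe set of Arntl read 4.06, 4.03 and 9.17 against 4.15 and 5.73, above the floor on the FVB/NJ array alone, and overlapped. A further probe set of Tef overlapped too, at 109, 168 and 89.4 against 90.4 and 27.9. Some further probe sets of Per2 and Per3, of low intensity, overlapped as well. The remaining further probe sets of these 3 genes were separated on the low side.

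Some leading members were neighbours in the gene order. Of the 106, 105 had a place in the reference gene order among 11889 detected genes, and 5 adjacent pairs were found. They were Slc30a10 with Lyplal1, Snrnp25 with Rhbdf1, and 3 pairs within the Gstm cluster, of which Gstm7 with Gstm6 ran in opposite directions. At the limit of 2-fold, Ddhd2, Clic1 and Tgfbr3 were just inside on the low side with gaps of 1.02, 1.01 and 1.01 log2, and Klf13, Col3a1 and Epha1 just outside with 0.99, 0.98 and 0.97. On the high side Mbl1, Proser2 and Lyplal1 were inside with 1.04, 1.01 and 1.00, and Fam25c, Chchd1 and Chic1 outside with 0.996, 0.99 and 0.95. Epha1 read 176, 199 and 167 against 85.1 and 61.9 and Chchd1 read 1220.1, 1296 and 1134 against 3003 and 2579.5. Col3a1, a collagen gene of stellate cells and fibroblasts, read 975, 1132 and 1191 against 495 and 304, low in the pair along with the summed markers of those cells. Col3a1 is itself among those markers, so its value is part of that sum.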

How the data were processed

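Liver RNA of 5 inbred mouse strains was hybridised to 1 expression array per strain, each a pool of 3 males. The deposited intensity values, 1 per probe set on a linear scale, come from the authors; GCOS and GCRMA are named in the submitters' processing notes, and their versions are not given in the sources used here. GCRMA adjusts for background and gives low probe sets near-equal values. Over probe sets of any intensity, 29.1% had the same value on at least 2 arrays. Equal values also occurred well above the floor, as for Clic1 (126 in C57BL/6J and BALB/CByJ) and Adcy6 (125 in BALB/CByJ and FVB/NJ). How far they narrow the ranges within groups was not tested. Of 45101 probe sets, 64 were controls, 34958 named 1 gene, 932 several and 9211 none, and 34754 matched the RefSeq table (GRCm38.p6), used for names, gene order and promoters. Genes with no probe set of their own were not analysed here. Values were taken to log2, with the probe set of highest mean kept per gene. Values under the 95th percentile of 86 probe sets for odorant, taste and vomeronasal receptors (8.41) were raised to it. No strain was replicated, so there is no SD and no test. The genes to name were, per direction, the 20 widest gaps among genes detected on all arrays and the 8 widest among those with a group at or under the floor on some array, the clock and strain variant lists, leading members of other lists, 3 genes on either side of the limit and adjacent leading members. Other genes were named after their values were seen. Members and lists were chosen with earlier results of these data known. Alternatives were 2 other floors, the mean of probe sets, no shared probe sets, quantile normalisation, other cut-offs and each array left out. The code was tested on simulated data. Python 3.11.15, numpy 2.4.6, pandas 2.3.3 and matplotlib 3.10.9 were used.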

Additional observations from a re-analysis of the deposited data

How the results depend on the processing

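None of the 169 genes followed was separated the opposite way under an alternative that gave it a value. With an array left out or another floor, a separated gene that keeps its probe set cannot turn. There the outcome was fixed in advance. Without probe sets of shared probes, 136 genes moved by less than the spread between probe sets, 17 by more, and the others had no value. Of the 169 genes, 56 moved by more with the mean of probe sets, 54 without NZW/LacJ and 4 with no floor. A floor at the 99th percentile, quantile normalisation and each other array left out moved 6 to 35. Against 65 lower and 41 higher leading members, the mean of all probe sets of a gene gave 43 and 28, of which 39 and 26 were shared. Raising the floor to the 99th percentile gave 56 and 36, no floor 66 and 41, probe sets without the suffixes for shared probes 60 and 33, and quantile normalisation 50 and 43. A gap of at least 4-fold gave 9 and 12, and a 2-fold difference of group means among separated genes 343 and 163, both by construction. Leaving out 1 array gave 88 to 354 lower and 54 to 183 higher genes, the most without NZW/LacJ. Lower genes of the dusk list numbered 11 to 12, and higher genes of the dawn list 3 to 5, against 11 and 4. No paired analysis was possible because there was a single array for each strain. Depth has no counterpart here, and genes near the floor have only bounds. Between probe sets of 1 gene, the difference of the group means differed by a median of 0.27 log2. That is another measure than the gap between the nearest arrays, so it cannot judge the narrow gaps under 0.25 log2.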
